A study of Mus musculus with 20 samples.

Results

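The data are log2 microarray values of 10 transcription factor genes of the lung mesenchyme, the connective tissue compartment that surrounds the airway epithelium of the fetal lung. Members are all probe sets of the deposited table whose only gene symbol is Prrx1, Prrx2, Meox2, Tcf21, Twist1, Nr2f1, Nr2f2, Tbx4, Tbx5 or Foxf1. All 10 genes are on the array, among 12393 genes with a probe set of their own, and they have 17 probe sets. Probe sets that exceeded 4 on the log2 scale in 5 or more of the 20 arrays counted as measured, and 13 of the 17 passed, so that 9 of the 10 genes could be tested. Twist1 did not pass.

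C57Bl6 embryos gave 1 left lobe and 1 array each, in 4 groups of 5 animals. The GR ablation groups (GRCol1-Cre), at E18.5 and at E16.5, lacked the glucocorticoid receptor (GR, Nr3c1) in mesenchymal cells, where Cre was expressed from an artificial chromosome that carries the Col1a2 locus. The control groups (GR flox) at the same stages carried the floxed receptor gene and kept the receptor in those cells. Other cells of the lobe keep it by design, and each value is an average over the whole lobe, in which fewer cells of a type and less RNA per cell cannot be told apart.

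Transcription factors of these families are used by the mesenchyme to hold positional identity, to set the balance between proliferating progenitors and differentiated fibroblasts, smooth muscle and pericytes, and to control the growth factors that the epithelium receives. The homeobox genes Prrx1, Prrx2 and Meox2 act in mesenchymal progenitors of limb, face and muscle, Tcf21 and Twist1 are basic helix-loop-helix factors, Nr2f1 and Nr2f2 are the orphan nuclear receptors COUP-TFI and COUP-TFII, Tbx4 and Tbx5 are T-box factors needed for lung bud outgrowth, and Foxf1 is a forkhead factor that responds to Hedgehog signals. The glucocorticoid receptor is itself a transcription factor, which binds DNA once fetal glucocorticoid reaches the cell and helps to mature the lung before birth.

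Nr3c1 checked the labels. Its brightest probe set averaged 7.07 ± 0.45 in E16.5 GR ablation lungs and 8.78 ± 0.22 in E16.5 controls (SD, n = 5 each), which left 30.4% of the control level, and 32.5% was left at E18.5. The tissue was checked with Sftpc, the surfactant protein of the lung epithelium (14.60 to 15.22 over the 20 arrays), Col1a2, a fibrillar collagen (12.73 to 13.57), and Pecam1 of endothelium (8.65 to 10.18), while the lung epithelial factor Nkx2-1 was dim on every array (1.87 to 2.63). A dim value is not read as absence of the transcript, since probe sets of the same gene, such as those of Prrx1, differed in brightness. Array medians lay between 5.70 and 5.87 and no 2 arrays were identical. By Xist and Y-linked genes, females made up 5 of 5 embryos in E16.5 GR ablation and 1 of 5 in E16.5 controls, 2 of 5 in E18.5 GR ablation and 3 of 5 in E18.5 controls. E18.5 control replicate 3 stood apart: placed on the line from the mean E16.5 control (0) to the mean E18.5 control (1) over all genes tested, it lay at 0.70, against 1.02 to 1.09 for the other 4 E18.5 controls. The E18.5 GR ablation arrays lay at 0.45 to 0.77 on this line, the E16.5 GR ablation arrays at -0.13 to 0.09 and the E16.5 controls at -0.09 to 0.21.

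At E18.5, 5 of the 9 genes tested passed the test between GR ablation and control. Prrx1, Prrx2, Nr2f1 and Meox2 were higher in GR ablation lungs and Tcf21 was lower, while Nr2f2, Tbx4, Tbx5 and Foxf1 did not pass. Prrx2 passed the filter on dim genes through its E16.5 arrays, and most of its E18.5 values are below the limit of 4. A gene was called at a limma adjusted p under 0.05 over the 8068 genes tested, and 34.5% of all genes tested were called in this comparison, 18.6% higher and 15.9% lower. All 5 GR ablation arrays lay above all 5 controls in 3 of the 9 (Prrx1, Nr2f1 and Meox2; 8.27% of all genes) and below them in 1 (Tcf21; 9.13%). The members' median difference was 0.08 and the median of their sizes 0.40, against 0.03 and 0.20 over all genes tested. At E16.5, Prrx1 and Nr2f1 passed and both were higher in GR ablation lungs, where 0.248% of all genes were called, 0.0496% higher and 0.198% lower. In both, all 5 GR ablation arrays lay above all 5 controls, as in 0.347% of all genes, and no member lay wholly below, as 0.657% of all genes did. The members' median difference at E16.5 was 0.08, against 0.01 over all genes tested. The members were chosen with earlier results of these data known, so their shares and medians against all genes are descriptive only. Without E18.5 control replicate 3, the same number of members (4 higher and 1 lower) passed at E18.5, where 41.6% of all genes did, and 1 passed at E16.5, where 0.26% did.

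**Figure D1:**
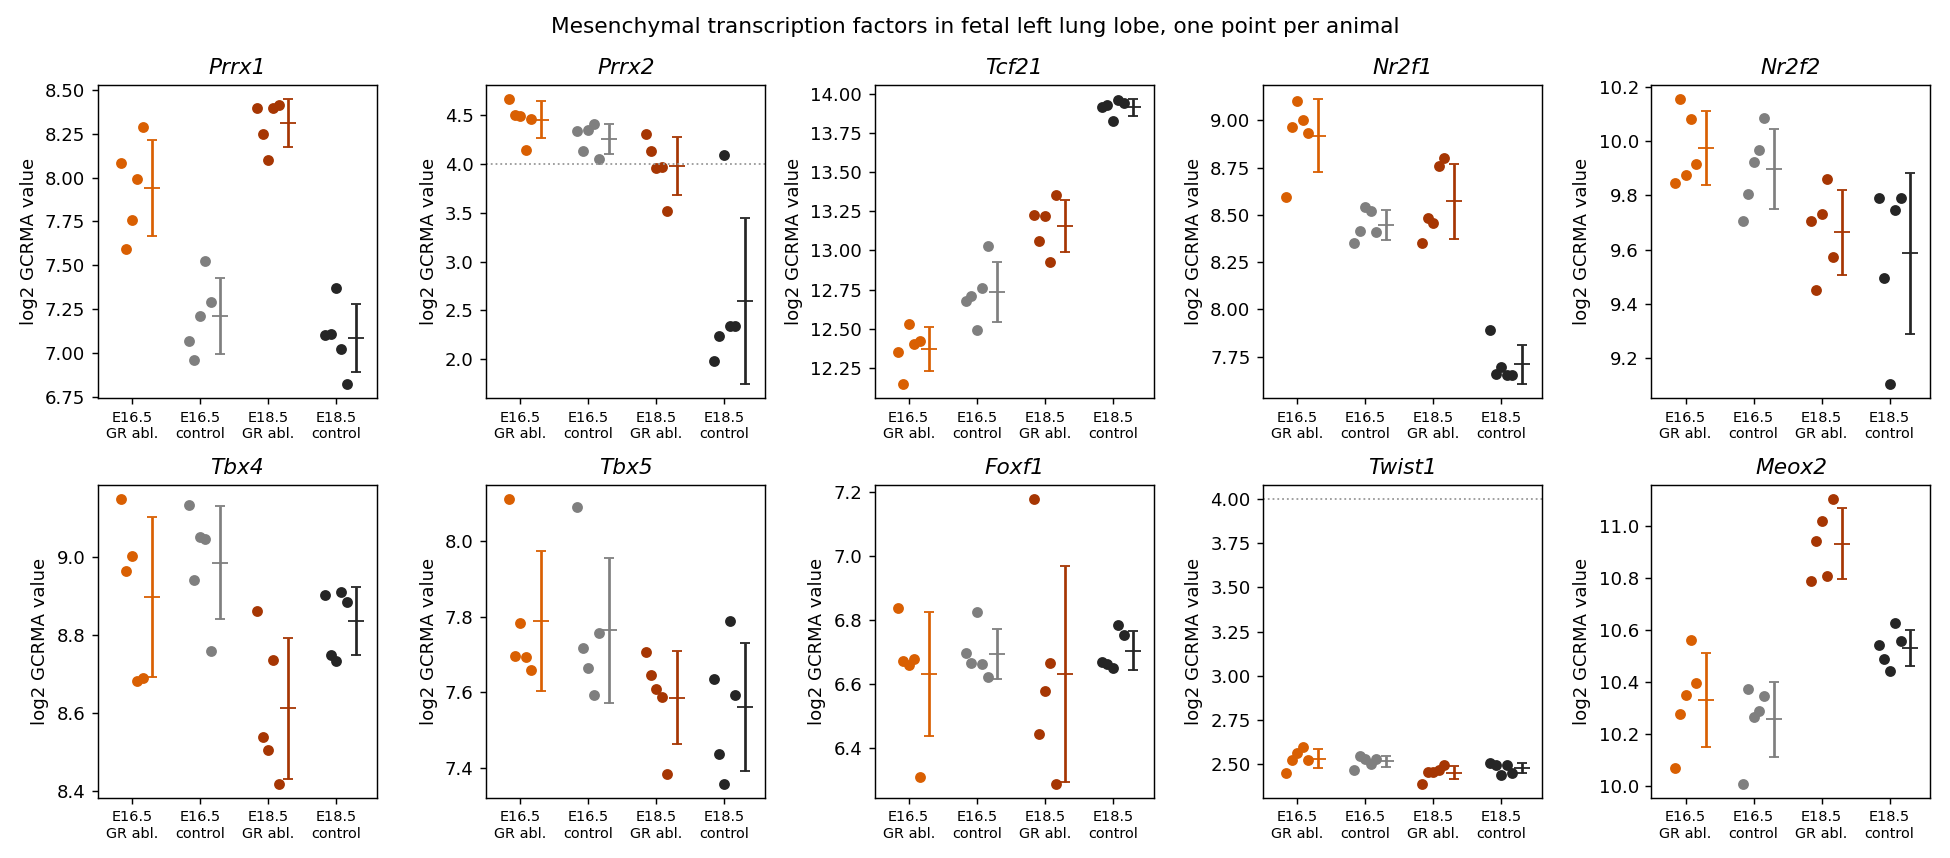
The log2 value of each of the 10 members in every array, with GR ablation left of control at each stage; each point is 1 animal, the cross bar is the mean of 5 with its SD, and the dotted line, where drawn, is the limit of 4 for a measured value. Prrx1 in GR ablation lungs lies above all controls at both stages, and Prrx2 shows 1 E18.5 control at 4.09 with the other 4 at 1.98 to 2.34.

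The promoters of Prrx1, Tcf21 and Nr2f1 are printed because Prrx1 and Nr2f1 were the 2 members called at both stages and Tcf21 was the only member called lower at E18.5. Each is the 250 bases before the start site from RefSeq on GRCm38.p6, 5′ to 3′ on the strand of the gene, with TAAT or its reverse complement ATTA, the core that homeodomain proteins bind, in capitals. Prrx1 lies at chr1:163313651-163313900 (minus strand), Tcf21 at chr10:22820144-22820393 (minus strand) and the first of 2 Nr2f1 start sites at chr13:78198874-78199123 (minus strand).
Prrx1: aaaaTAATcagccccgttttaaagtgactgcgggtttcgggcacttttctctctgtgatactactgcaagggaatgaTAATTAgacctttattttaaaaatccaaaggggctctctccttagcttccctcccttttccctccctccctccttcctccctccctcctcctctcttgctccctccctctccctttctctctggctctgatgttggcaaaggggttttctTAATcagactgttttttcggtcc
Tcf21: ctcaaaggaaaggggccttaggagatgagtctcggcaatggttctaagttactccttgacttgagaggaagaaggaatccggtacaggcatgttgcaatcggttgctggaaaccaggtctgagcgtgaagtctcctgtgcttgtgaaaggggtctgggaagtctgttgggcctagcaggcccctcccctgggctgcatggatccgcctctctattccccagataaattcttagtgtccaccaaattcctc
Nr2f1: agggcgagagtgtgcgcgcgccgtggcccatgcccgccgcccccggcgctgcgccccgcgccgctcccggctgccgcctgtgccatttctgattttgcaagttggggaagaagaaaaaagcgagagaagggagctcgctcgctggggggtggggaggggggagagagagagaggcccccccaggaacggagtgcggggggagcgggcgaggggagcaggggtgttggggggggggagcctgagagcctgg

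A window of this kind was found for 8 of the 10 members, 9 windows in all because Nr2f1 has 2, and Tbx5 and Foxf1 are named only. Searched on both strands, AGAACA, a half-site of the glucocorticoid receptor, was in 0 of the 9 windows and in 16.1% of all 32851 windows of the same length. AGGTCA, the half-site that COUP-TF receptors bind, was in 0 of the 9 and in 14% of all windows. The E-box CANNTG, bound by Tcf21 and Twist1 with partner proteins, was in the second Nr2f1 window and in the windows of Nr2f2, Tbx4 and Meox2, and in 66.2% of all windows. No match says only that these letters are not in these bases.

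TAAT, which was searched after the sequences had been seen, occurred 4 times in the Prrx1 window, at 246, 173, 171 and 23 bases before the start site, the 2 middle matches overlapping as TAATTA. At least 4 matches were found in 9.62% of all windows and at least 1 in 54.9%. The second Nr2f1 window and the Nr2f2 window each held 2 matches and the Meox2 window held 1. The Tcf21 window and the first Nr2f1 window held none. The Prrx1 window had 47.6% G and C and the first Nr2f1 window 72.0%, against a median of 52.4% over all windows.

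Prrx1, a homeobox gene of limb, craniofacial and lung mesenchyme, was higher in GR ablation lungs at both stages. The measured probe set (1425528_at) read 8.39, 8.25, 8.10, 8.40 and 8.41 in E18.5 GR ablation lungs, against 7.10, 7.11, 7.37, 7.02 and 6.83 in E18.5 controls. At E16.5 it read 8.08, 7.59, 7.76, 7.99 and 8.29 in GR ablation lungs, against 7.07, 6.96, 7.21, 7.53 and 7.29 in controls. At each stage the lowest GR ablation array lay above the highest control array. The difference was 1.22 at E18.5 (SE 0.13, adjusted p = 1.46e-06), 2.34 times the control signal. The difference at E16.5 was 0.73 (SE 0.13, adjusted p = 0.0118), or 1.66 times. Among the 8068 genes tested the size of the Prrx1 difference ranked 37th at E16.5 and 293rd at E18.5.

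The difference between the 2 stages' effects on Prrx1 was 0.50 and missed the threshold (adjusted p = 0.0963), although without E18.5 control replicate 3 it was 0.57 (adjusted p = 0.0357). The other 3 probe sets of Prrx1 (1425526_a_at, 1425527_at and 1432129_a_at) were dim on every array, between 2.17 and 3.06. Prrx1 thus rests on 1 probe set. Because the E16.5 groups differ in sex, both stages were also fitted with sex as a covariate: the E16.5 difference was 0.78 with adjusted p = 0.0810, and the E18.5 difference was 1.21 with adjusted p = 3.81e-06. The only female E16.5 control read 7.29, against 7.59 to 8.29 in the 5 female E16.5 GR ablation embryos.

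Prrx2, the paralog of Prrx1 in skeletal and vascular mesenchyme, was near the limit of measurement. It exceeded 4 in 2 of 5 E18.5 GR ablation lungs and 1 of 5 E18.5 controls, and in 5 of 5 lungs of each E16.5 group. It read 4.31, 4.14, 3.96, 3.97 and 3.52 in E18.5 GR ablation lungs, against 1.98, 2.24, 4.09, 2.34 and 2.34 in E18.5 controls. The groups overlapped through control replicate 3 alone, the array that also stood apart over all genes. The difference in deposited values was 1.38 (SE 0.27, adjusted p = 0.000885), and without that array the adjusted p was 3.53e-08. Since 3 of the 5 GR ablation and 4 of the 5 control values are not above the limit, the size of the difference is not a measured one and no fold is given. In male embryos alone the call was lost (adjusted p = 0.464). The male E18.5 controls were only 2, replicate 2 (2.24) and replicate 3 (4.09), the array that stood apart. At E16.5 Prrx2 read 4.15 to 4.67 in GR ablation lungs and 4.05 to 4.41 in controls, and the difference of 0.20 did not pass (95% interval -0.37 to 0.77).

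Meox2, a homeobox gene of muscle and vascular mesenchyme, had 2 measured probe sets that moved alike. The brighter one (1424234_s_at) read 10.79, 10.94, 11.02, 10.81 and 11.10 in E18.5 GR ablation lungs, against 10.54, 10.49, 10.44, 10.62 and 10.56 in E18.5 controls. No GR ablation array reached down to a control. The difference was 0.40 (SE 0.09, adjusted p = 0.00215), 1.32 times the control signal, and the size ranked 1912th. The second probe set (1424233_at) differed by 0.40 too (SE 0.07, adjusted p = 0.000310 over 12517 probe sets), and again did not overlap. In female embryos alone the difference of the brighter probe set was 0.30 (adjusted p = 0.0896) and in males alone 0.51 (adjusted p = 0.109), so the call was lost in each. At E16.5 the 2 probe sets differed by 0.08 each and did not pass.

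Tcf21, a basic helix-loop-helix factor that marks and maintains the fibroblast lineage of the lung, was the only member called lower in GR ablation lungs at E18.5. It read 13.23, 13.06, 13.22, 12.93 and 13.36 in E18.5 GR ablation lungs, against 13.91, 13.93, 13.82, 13.96 and 13.94 in E18.5 controls. The highest GR ablation array was below the lowest control. The difference was -0.75 (SE 0.09, adjusted p = 1.10e-05), or 59.3% of the control signal. At E16.5 it read 12.35, 12.15, 12.53, 12.40 and 12.42 in GR ablation lungs, against 12.68, 12.71, 12.49, 12.76 and 13.03 in controls, with overlap through control replicate 3. That difference of -0.36 (SE 0.09, limma adjusted p = 0.249) did not pass over all genes. Twist1, the other helix-loop-helix member and a regulator of mesenchymal identity, was dim on all 20 arrays, at 2.39 to 2.60, and no difference is given.

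Nr2f1 (COUP-TFI), an orphan nuclear receptor of neural crest and mesenchyme, was higher in GR ablation lungs at both stages. It read 8.35, 8.48, 8.46, 8.76 and 8.80 in E18.5 GR ablation lungs, against 7.89, 7.66, 7.70, 7.65 and 7.65 in E18.5 controls. At E16.5 it read 8.59, 8.97, 9.10, 9.002 and 8.93 in GR ablation lungs, against 8.35, 8.42, 8.54, 8.52 and 8.41 in controls. The groups did not overlap at either stage. The E18.5 difference was 0.86 (SE 0.10, adjusted p = 3.15e-06), or 1.82 times the control signal. The E16.5 difference of 0.47 (SE 0.10, adjusted p = 0.0470) was 1.39 times the control signal and lay close to the threshold. In 15 of the 20 fits that left out 1 array it no longer passed, and over all probe sets its adjusted p was 0.0545. With sex as a covariate it was 0.44 (adjusted p = 0.328).

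Nr2f2 (COUP-TFII), its paralog, which is needed for vein and lymphatic identity and for mesenchyme of several organs, did not pass in either ablation comparison. In E18.5 GR ablation lungs it read 9.71, 9.45, 9.73, 9.86 and 9.57, against 9.79, 9.50, 9.11, 9.75 and 9.79 in E18.5 controls. The groups overlapped, and the difference was 0.08 (SE 0.12, adjusted p = 0.649) with a 95% interval of -0.17 to 0.33. Its other 2 probe sets differed by 0.10 and 0.17 at E18.5 and did not pass either, as shown in the plot of genes with more than 1 measured probe set.

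**Figure D2:**
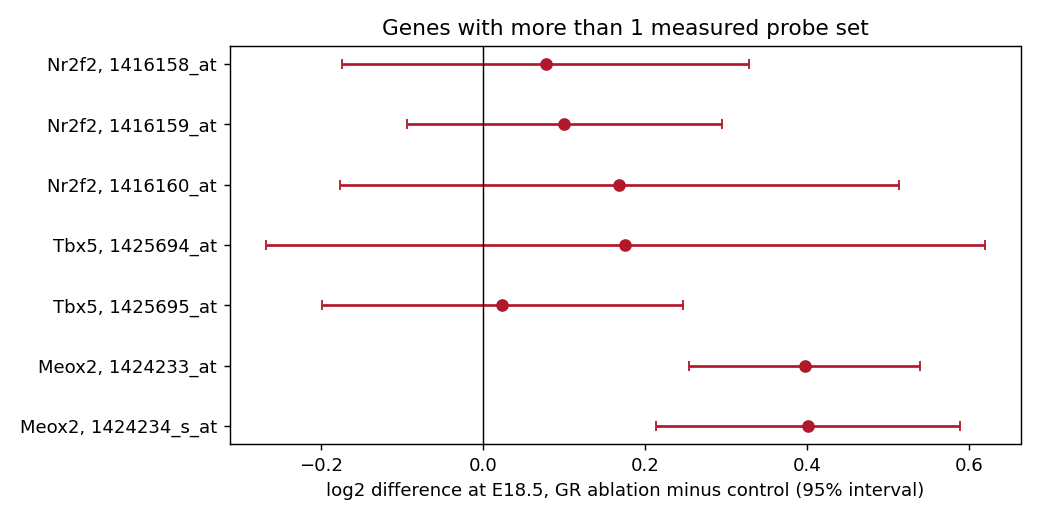
The log2 difference between GR ablation and control at E18.5, with its 95% interval, for each probe set of the members that had more than 1 measured. Both Meox2 probe sets lie above 0 at 0.40, while the intervals of the 3 Nr2f2 and the 2 Tbx5 probe sets cross 0.

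Tbx4 and Tbx5, the T-box factors of the lung mesenchyme that act upstream of Fgf10, did not pass in either ablation comparison. Tbx4 read 8.86, 8.54, 8.51, 8.74 and 8.42 in E18.5 GR ablation lungs, against 8.90, 8.75, 8.73, 8.91 and 8.89 in E18.5 controls. The groups overlapped, and the difference was -0.22 (SE 0.10, limma adjusted p = 0.0946) with a 95% interval of -0.44 to -0.01. It passed with array weights (-0.29, adjusted p = 0.0121) and without E18.5 GR ablation replicate 1 (-0.29, adjusted p = 0.0395). Tbx5 read 7.38 to 7.71 in E18.5 GR ablation lungs and 7.36 to 7.79 in E18.5 controls, a difference of 0.02 with a 95% interval of -0.20 to 0.25. Its dimmer probe set (1425694_at) ran from 5.34 to 6.70 in E18.5 GR ablation lungs and from 5.63 to 6.16 in E18.5 controls, a difference of 0.18 that did not pass.

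Foxf1, the forkhead factor of lung mesenchyme and endothelium, read 7.18, 6.44, 6.58, 6.67 and 6.29 in E18.5 GR ablation lungs, against 6.67, 6.66, 6.65, 6.79 and 6.75 in E18.5 controls. The GR ablation values were spread on both sides of the controls. The difference was -0.07 (SE 0.12) with a 95% interval of -0.33 to 0.18. At E16.5 the intervals were -0.32 to 0.19 for Foxf1, -0.20 to 0.25 for Tbx5, -0.30 to 0.12 for Tbx4 and -0.17 to 0.33 for Nr2f2.

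**Figure D3:**
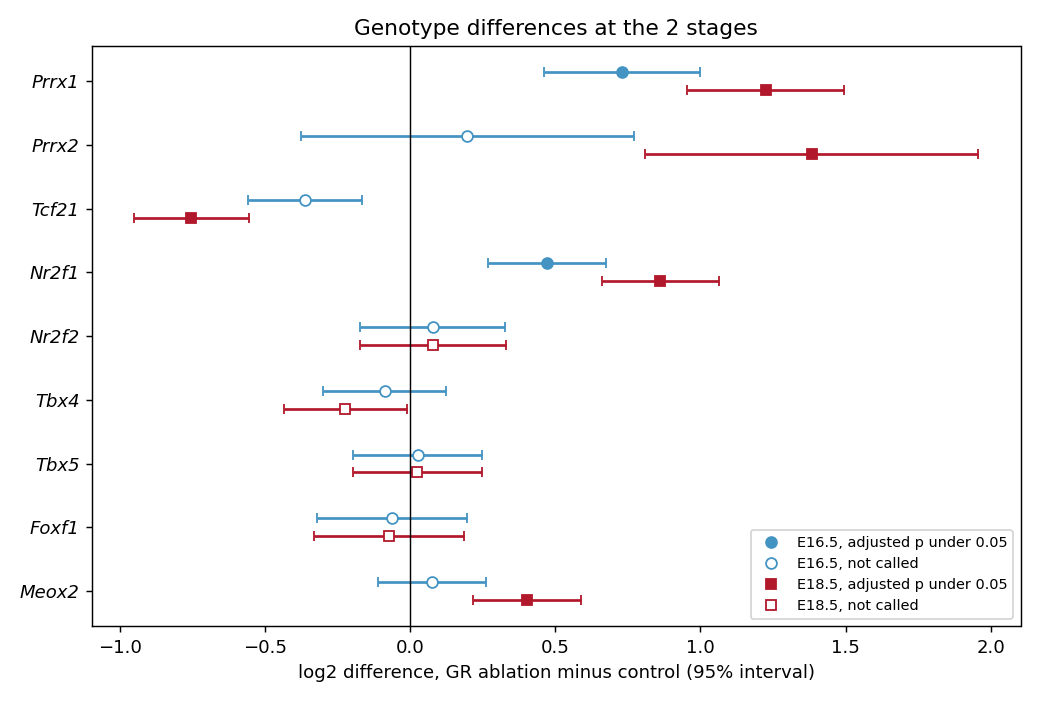
The log2 difference between GR ablation and control, with its 95% interval, for the 9 measured members at both stages. Prrx1 and Nr2f1 lie above 0 at both stages, Prrx2 and Meox2 at E18.5, and Tcf21 lies below 0 at E18.5.

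Whether the effect of GR ablation differed between the stages was tested directly. None of the 9 members was called by limma, where 8.4% of all genes were, and 5 of the 9 had an unadjusted p under 0.05 (Prrx1 0.0137, Prrx2 0.00644, Tcf21 0.00839, Nr2f1 0.0102 and Meox2 0.0183), against 24.8% of all genes. In Prrx1, Tcf21, Nr2f1 and Meox2 the E18.5 difference was the larger in size. Most E18.5 values of Prrx2 are below the limit of 4, so its sizes at the 2 stages are not compared. Its p-value here rests on those values too. Without E18.5 control replicate 3, Prrx1, Prrx2 and Tcf21 were called, where 17.9% of all genes were.

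Development was followed in the controls, which the ablation comparisons share. At E18.5 against E16.5, 5 of the 9 members were called, 2 higher and 3 lower, where 70.9% of all genes were, 35.3% higher and 35.5% lower. Tcf21 was higher by 1.18 (SE 0.09, adjusted p = 3.99e-09), with 13.82 to 13.96 in E18.5 controls and 12.49 to 13.03 in E16.5 controls. Nr2f1 was lower by 0.74 and Nr2f2 by 0.31, while Meox2 was higher by 0.28. Prrx2 was called lower too, but 4 of its 5 E18.5 control values are below the limit of 4, against 5 of 5 E16.5 control values above it, so the size of that difference is not given. Prrx1 did not pass (-0.13, adjusted p = 0.385), nor did Tbx4, Tbx5 and Foxf1 by their brightest probe sets. The dimmer Tbx5 probe set was lower by 0.73 (adjusted p = 0.00485 over all probe sets), where the brighter one was at -0.20. Without E18.5 control replicate 3, Nr2f2 lost its call (-0.19).

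In GR ablation lungs, 6 of the 9 members were called between E18.5 and E16.5, 3 in each direction, where 56.2% of all genes were, 28.7% higher and 27.6% lower. Tcf21 was higher by 0.79 (adjusted p = 2.01e-06), Meox2 by 0.60 (adjusted p = 1.84e-05) and Prrx1 by 0.37 (adjusted p = 0.0209). Nr2f1 was lower by 0.35 (adjusted p = 0.00520), Nr2f2 by 0.31 and Tbx4 by 0.29. Prrx2 missed the threshold at -0.48 (adjusted p = 0.148) and passed without E18.5 control replicate 3, where the shared estimate of its spread was smaller. Nr2f2 rests on its brightest probe set, since the other 2 differed by -0.14 and -0.27 and did not pass.

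**Figure D4:**
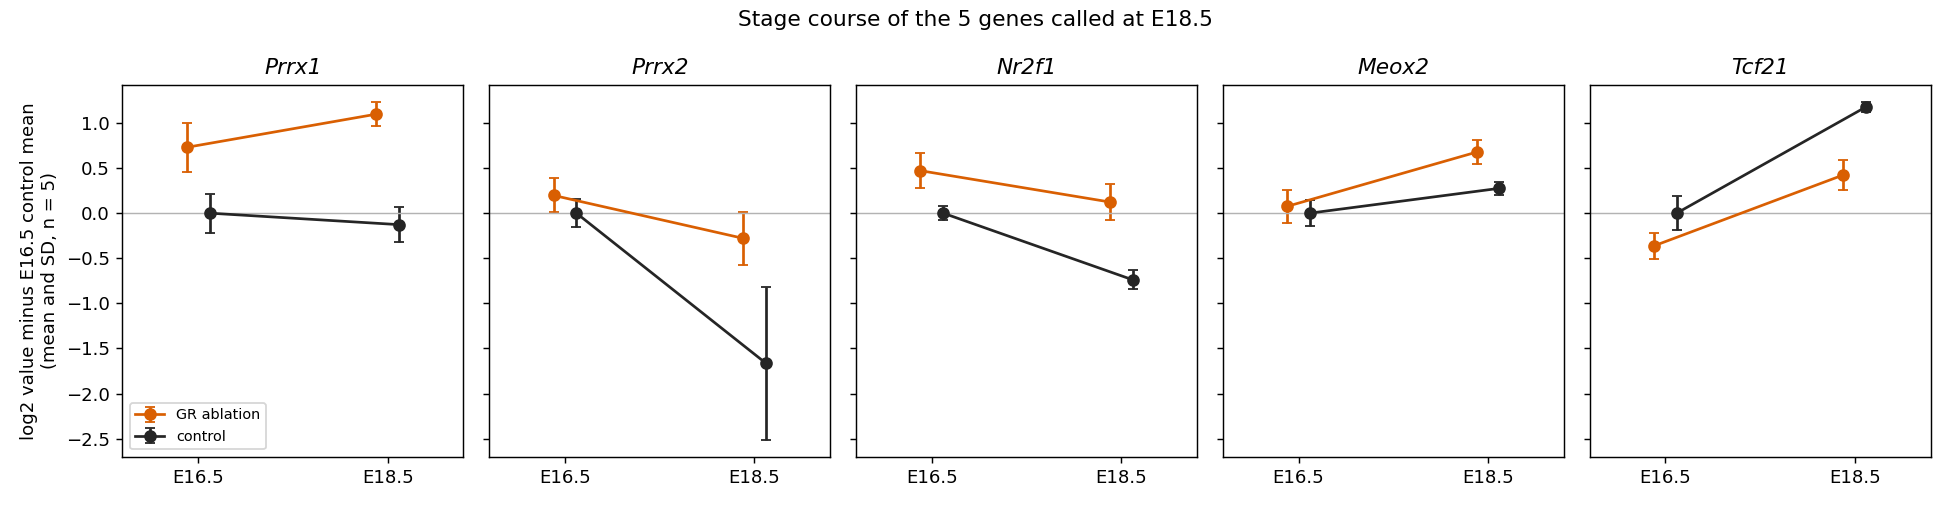
The mean log2 value at E16.5 and E18.5 in GR ablation and in control lungs, less the E16.5 control mean, with the SD over 5 animals, for the 5 members called at E18.5. Between the stages Tcf21 climbs by 0.79 in GR ablation lungs and by 1.18 in controls, and Prrx1 climbs by 0.37 in GR ablation lungs while the control means differ by -0.13.

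Set side by side, the E18.5 GR ablation means fell in 3 places relative to the 2 control stages. For Prrx1 (8.31), Meox2 (10.93) and Nr2f1 (8.57) they lay above both the E18.5 and the E16.5 control mean, for Tbx4 and Foxf1 below both, and for Prrx2, Tcf21, Nr2f2 and Tbx5 in between. Over all genes tested 16.6% lay above both, 10.7% below both and 72.7% in between. Tbx4, Foxf1, Nr2f2 and Tbx5 did not pass against controls, and their arrays overlapped the controls of both stages. The Prrx2 mean in E18.5 controls (2.60) is below the limit of 4, so its place is not a measured one. The individual arrays of Prrx1 ran from 8.10 to 8.41 in E18.5 GR ablation lungs, against 6.83 to 7.37 in E18.5 controls and 6.96 to 7.53 in E16.5 controls. Those of Meox2 ran from 10.79 to 11.10, against 10.44 to 10.62 in E18.5 controls and 10.01 to 10.37 in E16.5 controls. Nr2f1 overlapped the E16.5 controls (8.35 to 8.80, against 8.35 to 8.54), as did Tcf21 (12.93 to 13.36, against 12.49 to 13.03).

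Of 25 other transcription factors of lung mesenchyme that were tested, 11 were higher and 5 lower in E18.5 GR ablation lungs, with a median of 0.20, and none was called by limma at E16.5 (median 0.05), where 0 of the 25 had an unadjusted p under 0.05. The 16 called at E18.5 made up 64% of the list, against 34.5% of all genes tested. The list was chosen with earlier results of these data known, so this share describes the list and tests nothing. Gli1, the transcription factor and target of Hedgehog signalling, was higher by 1.26 in deposited values and Snai2, a repressor active in migrating mesenchyme, by 0.69. Most E18.5 control values of Gli1 were below the limit of 4 (median 3.82) and its groups overlapped, so its size is not a measured one. Klf2, which is on the list but is also a factor of endothelium that responds to blood flow, was lower by 1.12, and Zeb1, an inducer of the mesenchymal state, by 0.70. Among paralogs of the members, Foxf2 was higher by 0.56 (limma adjusted p = 0.000112), while Meox1 was lower by 0.53 (adjusted p = 0.00140), opposite in sign to Meox2. Twist2 was called higher too (adjusted p = 0.0465), but all its E18.5 control values were below the limit of 4 (highest 3.997). The median of its E18.5 GR ablation values was 3.99, so the size of its difference is not given. Tbx2 was lower by 0.29 and Tbx3 by 0.40. These paralogs were singled out after their values were seen. Without E18.5 control replicate 3 the counts were 11 higher and 6 lower.

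**Figure D5:**
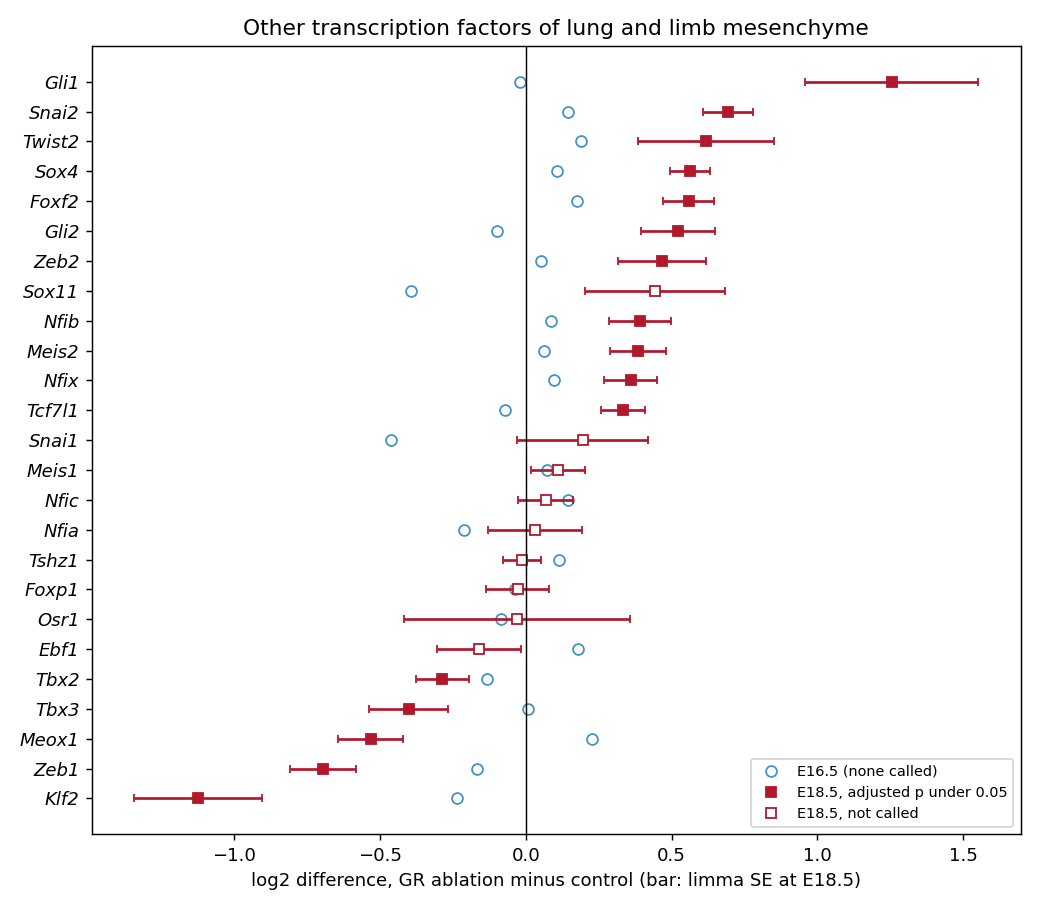
The log2 difference between GR ablation and control for the 25 other mesenchyme transcription factors tested, as squares with the limma SE at E18.5 (filled where called) and as open circles at E16.5. Gli1 lies highest at 1.26, with most of its E18.5 control values below the limit of 4, and Klf2, a factor of endothelium, lowest at -1.12.

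Of 14 partners of the helix-loop-helix and COUP-TF members, 5 were higher and none lower in E18.5 GR ablation lungs, and this share of 35.7% lay near the 34.5% of all genes called. Bcl11a, which binds COUP-TF proteins, was higher by 1.15, Zfpm2 (FOG2), a cofactor that binds GATA factors and COUP-TFII, by 0.79, Tcf3 (E2A), a dimer partner of Tcf21 and Twist1, by 0.62, and Id3, which sequesters such partners, by 0.31. Of 16 genes listed as signals and targets of the members, 8 were higher and 2 lower, or 62.5% called. That list too was chosen with earlier results of these data known. Whether the members act on these genes in these lungs was not tested. The Wnt agonist Rspo2 was higher by 3.37 at E18.5 and by 1.39 at E16.5, the proteoglycan Vcan by 2.09, the matrix glycoprotein Tnc by 1.23 and the growth factor Tgfb2 by 0.93. Most E18.5 control values of Rspo2 were below the limit of 4 (median 3.92), so its size at E18.5 is not a measured one. Fgf10, the mesenchymal growth factor for the distal epithelium, and Shh, the Hedgehog ligand, were dim on every array.

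Markers of the cells in the lobe were compared between the same E18.5 groups, in which 18.6% of all genes were called higher and 15.9% lower. General mesenchymal genes were called lower in 5 of 16 and higher in none, with Fn1 at -1.21 and Col6a3 at -0.74, and their summed level ran from 16.56 to 16.70 in GR ablation lungs and from 16.80 to 16.94 in controls. Thy1 of that list was dim on every array. Endothelial genes were lower in 11 of 14, with a summed level of 13.24 to 13.53 in GR ablation lungs against 13.78 to 14.07 in controls, and Prox1 dim throughout. Mitosis genes were higher in 14 of 14, with a summed level of 13.23 to 14.35 in GR ablation lungs against 12.66 to 13.90 in controls. Their part in the members' differences was not tested.

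Of the remaining lists at E18.5, mesothelial genes were lower in 3 of 3 (summed level 11.14 to 11.89 in GR ablation lungs against 12.78 to 13.06 in controls, Wt1 dim), and epithelial genes were higher in 1 and lower in 4 of 15 (16.28 to 16.47 against 16.48 to 16.59 in controls). Cartilage genes were higher in 3 and lower in 1 of 9 (8.64 to 10.02 in GR ablation lungs against 8.37 to 8.86 in controls), with Acan, Matn1 and Comp dim on every array. Smooth muscle genes and cardiac muscle genes each had 1 higher and 1 lower of 9, blood and macrophage genes had 2 lower of 6, and skeletal muscle genes had 1 lower of 2, with Myod1, Myog, Myf5 and Myf6 dim on every array. At E16.5 no gene of these lists was called apart from Rspo2.

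The genes with the pattern most like a member were found from the root mean square difference over the 20 arrays between log2 values centred on each gene's own mean. For Prrx1 they were Tnc (0.26), Nrcam (0.29) and Olfml2b (0.30), where Prrx1 itself had an SD of 0.56. For Prrx2 they were Capn6 and Fbln1 (0.23 each) and 6330403K07Rik (0.24), for Tcf21 Cast (0.11), Col6a1 (0.12) and Hpcal1 (0.14), for Nr2f1 Cenpv and Serf1 (0.20 each) and Magee1 (0.21), and for Meox2 Acot1 (0.13), Sec11c and St8sia4 (0.16 each). Members with little change across groups had near neighbours too, Cacfd1, Zfp869 and Parg for Nr2f2, Pmm2, Mest and Scap for Tbx4, Zfp148, Xpnpep1 and Slc30a6 for Tbx5, and Supt5, Slc25a17 and Csnk1e for Foxf1, at 0.10 to 0.15.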

How the data were processed

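RNA of 20 left lung lobes was hybridized to Affymetrix arrays, 1 animal per array. Per the submitters' processing notes, the authors used GCRMA to obtain the log2 values deposited here. Which version was used is not stated in these sources. GCRMA corrects background by probe base composition, quantile-normalizes arrays and summarizes each probe set, so dim values are compressed towards a floor. The values were not normalized again.

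Of 22690 probe sets, 20380 name 1 gene, 691 several and 1555 none, and 64 are array controls. The probe set with the highest mean stood for each gene, and genes above log2 4 in at least 5 arrays were tested (8068). Limma 3.58.1 (lmFit and eBayes, R 4.3.3) estimated the 4 group means from the 20 arrays together, and tests were two-sided, with Benjamini-Hochberg adjustment over all genes tested. A second fit took the 12517 single-gene probe sets that passed. The code was tested on simulated data. Intervals are 95% limma intervals, and ± is the SD over 5 animals. Figures used matplotlib 3.10.9, pandas 2.3.3 and Python 3.11.15. The number of arrays limits the precision. P-values set the difference between group means against the spread between animals, which limma estimated over the 4 groups together.

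The members and gene lists were chosen with earlier results of these data known. Named were all members, Nr3c1, up to 4 called genes per list with the largest change, and the 3 genes most like each member. Summed list levels are log2 of summed linear signals over all listed genes on the array. Stage position places each array between the control means, each control left out of the mean it is set against. Alternatives covered the arrays fitted, filters, quantile normalization, median centring, probe set choice, array weights, replicate number, sex, thresholds and leaving out each array. Fits in females or males alone, with stage position, with the replicate number within each stage, and the gene list counts without E18.5 control replicate 3 were added after seeing the data. Promoter windows come from RefSeq on GRCm38.p6. The files name no genome build.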

Additional observations from a re-analysis of the deposited data

Results flagged for a closer look

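In each group of 5 the highest and lowest value of every measured member were checked for a gap to the nearest other array that took up more than 0.71 of the group's range. Of 36 groups checked, 3 had such an array, where chance gives about 1 in 20 groups. Prrx2 in E18.5 control replicate 3 was the highest of its group at 4.09, with the next at 2.34 (gap over range 0.831). Nr2f1 in E18.5 control replicate 1 was the highest at 7.89, with the next at 7.70 (0.807). Tbx5 in E16.5 GR ablation replicate 1 was the highest at 8.11, with the next at 7.78 (0.729).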

How the results depend on the processing

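Over the settings other than leaving out an array, and without the fits in females alone or with stage position, 469 of 526 values kept their direction and side of the threshold, 26 lost a call, 14 gained one and 17 changed sign. Over 900 with 1 array left out, the numbers were 814, 29, 10 and 47. The causes were not tested.

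In females alone 1 E16.5 control is left, which is assumed to vary like the other groups. Stage position is computed from the expression values themselves: it takes out the stage difference by construction, and 4 of the 5 E18.5 controls lie above every E18.5 GR ablation array on it, so values with this covariate say nothing about stability in either direction.

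The 2 members called at E16.5 became 1 with no filter on dim genes, with quantile normalization and with probe sets averaged per gene, and 0 with only the arrays compared, with sex as a covariate, at an adjusted p under 0.01 and in females alone. With averaged probe sets Prrx1 was not tested in any comparison, because its average passed the limit of 4 in too few arrays. The call left at E16.5 in that setting was thus not Prrx1. The 5 called at E18.5 became 3 in males alone. Smaller changes in the counts, such as Tbx4 gained at E18.5 with array weights, are not all listed here. The interaction, with 0 called, had 1 with quantile normalization and in females alone, and 5 with array weights. Development in controls, with 5 called, had 3 at an adjusted p under 0.01 and in females alone, and development in GR ablation, with 6 called, had 3 in each. With stage position as a covariate the interaction had 1 called, development in controls 0 and development in GR ablation 1, and at E18.5 Prrx2 was at 0.40 (adjusted p = 0.408) and Tcf21 at -0.44 (adjusted p = 0.0153). With 1 array left out the counts ran from 1 to 2 at E16.5, 5 to 6 at E18.5, 0 to 3 for the interaction, 4 to 6 in controls and 4 to 7 in GR ablation.

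Replicate numbers recur in all groups, and the labels do not say that they mark a shared litter or batch. They were not taken as pairs, since same-number correlations between genotypes were over 0.1 in 4 of 5 pairs at E16.5 (-0.10 to 0.60) and in 1 of 5 at E18.5 (-0.43 to 0.21), and 3 of 5 arrays at E16.5 and 0 of 5 at E18.5 correlated best with their own number. A shared number at E16.5 alone was not settled by these values. With the replicate block, 1 member was called at E16.5 (Prrx1; Nr2f1 had adjusted p = 0.0850), and Tbx4 was called at E18.5 (adjusted p = 0.0468). With the replicate block within each stage, 0 were called at E16.5 (Prrx1 0.0567, Nr2f1 0.165) and 6 at E18.5. Over all genes the block gave 17, 2943 and 733 calls at E16.5, at E18.5 and for the interaction, against 20, 2784 and 678 without it.

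All log2 differences that changed sign are given here. With stage position as a covariate, development in controls was at 0.85 for Prrx2, 0.41 for Tbx4 and -0.35 for Meox2, development in GR ablation was at 1.14 for Prrx2, 0.071 for Tbx4 and 0.36 for Foxf1, and Tbx5 was at -0.030 at E18.5. In females alone, the E16.5 differences were 0.0099 for Foxf1, -0.014 for Meox2, -0.11 for Nr2f2 and 0.14 for Tbx4, the E18.5 differences -0.12 for Nr2f2 and -0.056 for Tbx5, the interaction of Nr2f2 -0.0089 and development of Tbx4 in controls 0.14. In males alone, Foxf1 was at 0.025 at E18.5, and development in controls was at -0.056 for Foxf1 and 0.044 for Prrx1. With array weights, E18.5 differences were -0.050 for Nr2f2 and -0.028 for Tbx5, the interaction of Nr2f2 was -0.10 and development of Foxf1 in controls -0.0041. With sex as a covariate, E16.5 differences were -0.11 for Nr2f2 and -0.071 for Tbx5, and the interaction of Tbx5 was 0.12. With quantile normalization and with median centring, the interaction was 0.015 and 0.014 for Foxf1 and 0.014 and 0.022 for Tbx5, and development of Foxf1 in controls was -0.038 and -0.063. With averaged probe sets the interaction of Tbx5 was 0.089.

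With 1 array left out, sign changes occurred in Tbx5 at E16.5 (-0.055 to 0.11) and E18.5 (-0.027 to 0.080), in Foxf1 at E16.5 (-0.11 to 0.017) and E18.5 (-0.21 to 0.012), in Nr2f2 at E18.5 (-0.042 to 0.13), in the interaction of Nr2f2 (-0.12 to 0.054), Tbx5 (-0.083 to 0.079) and Foxf1 (-0.15 to 0.075), and in development of Foxf1 in controls (-0.010 to 0.042) and in GR ablation (-0.14 to 0.085). The E18.5 difference ran from 1.16 to 1.30 for Prrx1, 1.23 to 1.76 for Prrx2, -0.80 to -0.70 for Tcf21, 0.80 to 0.92 for Nr2f1 and 0.36 to 0.44 for Meox2, and each kept its call. Precision is limited by 5 animals per group, and for Prrx2 by values near the floor.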
